A study of Mus musculus with 16 samples.

Results

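The proteasome genes described here were the protein-coding genes whose symbol is Psma, Psmb, Psmc, Psmd or Psme followed by a number. The rule found 45 of the 55385 genes in the deposited table, and 44 of them were tested. They were the 7 alpha subunits of the core (Psma1 to Psma7), its 7 constitutive beta subunits (Psmb1 to Psmb7) and the 3 inducible beta subunits of the immunoproteasome (Psmb8, Psmb9 and Psmb10). Of the cap, the rule found the 6 ATPases of the base (Psmc1 to Psmc6) and 14 lid, non-ATPase base and cap assembly proteins (Psmd1 to Psmd14). Of the activators it found 4 (Psme1 to Psme4). The remaining 4 genes went against the label in part. Psma8 and Psmb11 are subunits of germ cells and of the thymus, Psme2b is a retrogene copy of Psme2, and Psmc3ip is no proteasome subunit but a recombination factor named for its binding to Psmc3.

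RNA was sequenced from cells sorted for EGFP out of the retina of Iba1-EGFP mice, a reporter strain in which EGFP follows Iba1, a protein of microglia and of other macrophages. The libraries, labelled as microglia, formed 4 groups of 4. The day 0 group had no treatment and mice of 15 weeks of age. The other groups followed crush of the optic nerve, an injury of the axons of retinal ganglion cells, by 2 days (13 weeks of age), 4 days (13 weeks) and 7 days (16 weeks). Day and age cannot be told apart, apart from days 2 and 4, which share an age. The labels do not say that libraries came from separate animals, so p-values measure the spread between these libraries, which may be technical. The labels speak of lysing sorted single cells and give no number of cells per library. In bulk samples, fewer cells of a type and less RNA per cell cannot be told apart.

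The proteasome is the barrel-shaped protease that degrades proteins marked with ubiquitin. Rings of alpha and beta subunits form the core, with the catalytic sites on Psmb5, Psmb6 and Psmb7. The ATPases of the cap unfold the substrate, receptors of the base bind its ubiquitin, and the lid removes that ubiquitin. Interferon gamma induces Psmb8, Psmb9 and Psmb10, which take the places of Psmb5, Psmb6 and Psmb7 in new particles, and Psme1 and Psme2, which form the PA28 activator, and the resulting immunoproteasome is known for making peptides for MHC class I. Microglia are the resident macrophages of the retina, and cells of the macrophage lineage are known to carry inducible subunits.

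The libraries held 8647276 to 15708302 reads, as recovered from the steps of the deposited values, and 9493 to 16522 genes at 1 FPKM or more, the most in day 0 replicate 1. FPKM is the number of fragments counted for a gene, scaled to its length and to the reads of the library. The 8 microglia markers, which include Aif1, Csf1r and P2ry12, each reached 1 FPKM in some library of every day, with summed levels of 3050 to 12000 FPKM at day 0 and 5920 to 8020 FPKM at day 4. RNA of other retinal cells was present as well, with summed levels of the 8 rod markers from 1410 to 9650 FPKM. Day 0 replicate 1 stood apart: its rod markers, at 9650 FPKM, exceeded its microglia markers, at 3050 FPKM, and its 6 cone and 3 erythrocyte markers summed to 1820 and 219 FPKM, where the other day 0 libraries had at most 207 and 3.27 FPKM. Replicates 1 and 2 of every day share the first 4 digits of a code in the sample titles, as do replicates 3 and 4, and these sets are called batch 1 and batch 2.

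At day 4 the proteasome genes took 1.11% ± 0.0616 of the reads (SD, n = 4), against 0.492% ± 0.0572 at day 0. The shares were 0.643% ± 0.0897 at day 2 and 0.713% ± 0.183 at day 7. On the deposited scale no day 4 library, at 1.02 to 1.15%, overlapped any other library, of which the highest was day 7 replicate 4 at 0.955%. The summed FPKM of the 14 constitutive core subunits was 749 to 958 at day 0, 1107 to 1562 at day 2, 2180 to 2354 at day 4 and 1151 to 2176 at day 7. Day 7 replicate 4, at 2176 FPKM, lay apart from the other day 7 libraries, at 1151 to 1388 FPKM, and next to the day 4 libraries. These shares and sums are as deposited. The median-of-ratios factors, which scale by the genes in common use, were 1.27 to 1.39 at day 4 and 0.901 to 1.01 at day 0. Day 7 replicate 4 had a factor of 1.13, below those of day 4. The gap between day 4 and this library was read on the deposited scale alone and need not hold after rescaling. Of the 44 tested genes, 38 had their highest mean level at day 4 and 29 their lowest at day 0. These counts were not taken over all genes, which leaned to day 4 as well. Of all genes tested, 56% had a positive change from day 0 to day 4, 58.6% from day 2 to day 4 and 37.5% from day 4 to day 7. The 6 of the 44 with another highest day were Psma1, Psma8, Psmb9, Psmd5, Psmd8 and Psme4.

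**Figure D1:**
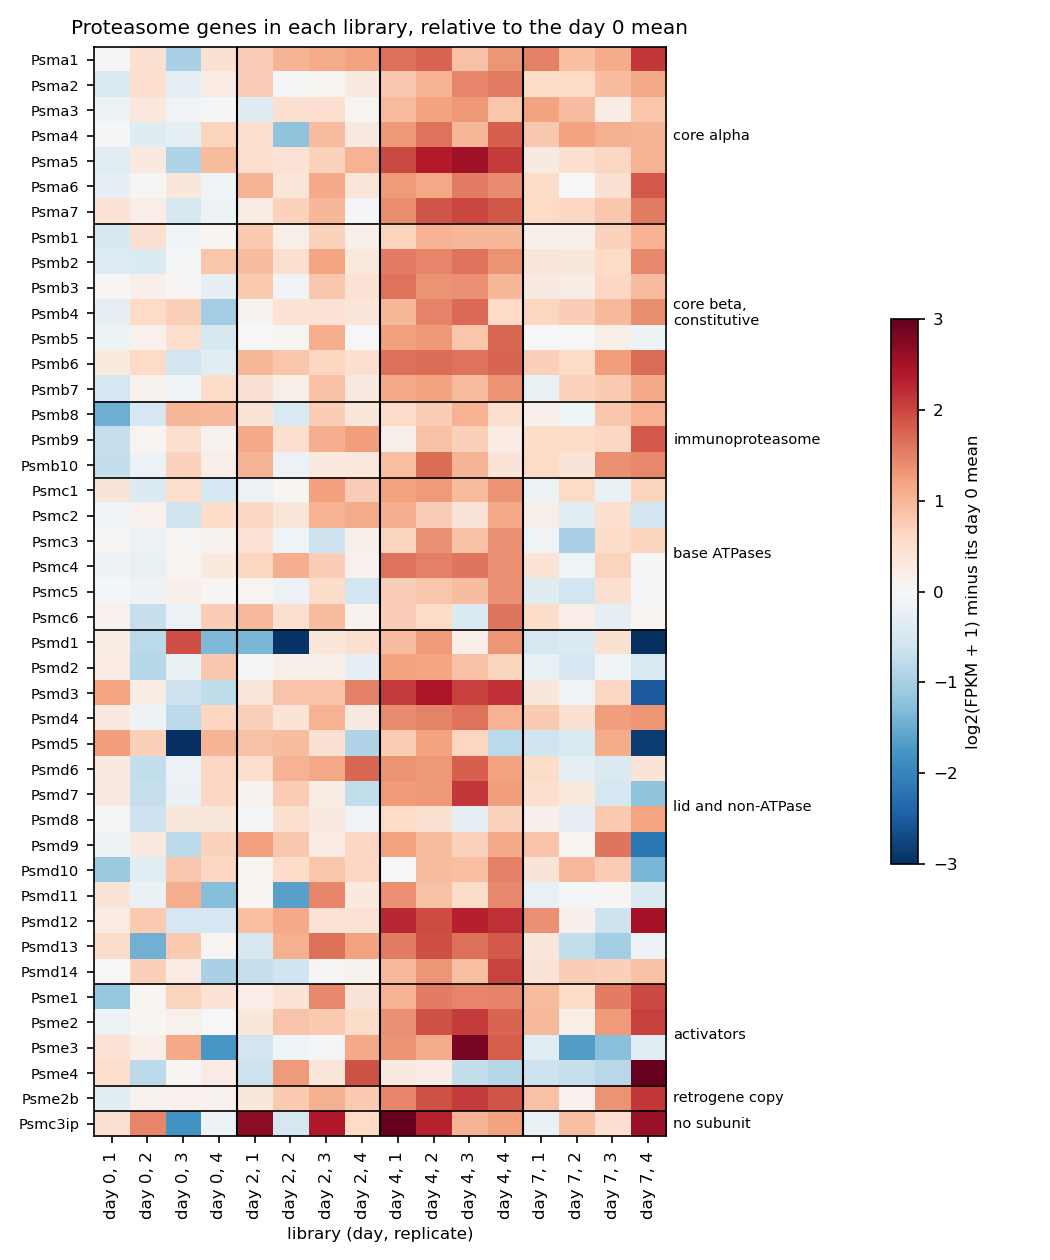
Each row is 1 of 43 tested genes (Psma8 is left out) and each column 1 of 16 libraries; colour gives log2(FPKM + 1) minus the gene's mean over the 4 day 0 libraries, and values beyond 3 in either direction have the end colour. The 4 day 4 columns are red across most rows, and day 7 replicate 4 differs from the other day 7 columns in both directions.

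In the comparison of day 4 with day 0, 22 of the 44 genes rose and none fell (limma, adjusted p under 0.05), where 4.62% of the 14795 genes tested rose. The adjusted p-values of the 22 ran from 0.00296 to 0.0494 and the changes from 0.97 to 2.26 on the log2(FPKM + 1) scale, which is a rise of 1.96-fold to 4.78-fold. All 22 had a positive value in both batches, as did 39 of the 44, and the median change was 1.32 in batch 1 and 1.17 in batch 2. The pooled change comes from the same libraries, so the shared sign of the called genes is no separate evidence. The share over all genes was not taken. In 28 of the 44 genes every day 4 library lay above every day 0 library, where 12.6% of all genes tested did. The median change of the 44 genes was 1.24, and that of all genes tested was 0.16.

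The rises were spread over the core, the cap and the PA28 activator. All 7 alpha subunits rose (median change 1.40), as did 5 of the 7 constitutive beta subunits (median 1.27), and Psmb1 and Psmb4 did not pass. Of the base ATPases, 2 of 6 rose, Psmc4 and Psmc5 (median of the 6, 1.02). Among the Psmd genes, 5 of 14 rose (median of the 14, 1.19): Psmd4, the ubiquitin receptor of the base, Psmd14, the deubiquitinase of the lid, and the lid subunits Psmd3, Psmd6 and Psmd12. Psme1 and Psme2 rose, and Psme3 and Psme4 did not pass. None of the 3 immunoproteasome subunits passed (median 0.72). Whether these groups differed from each other was not tested.

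**Figure D2:**
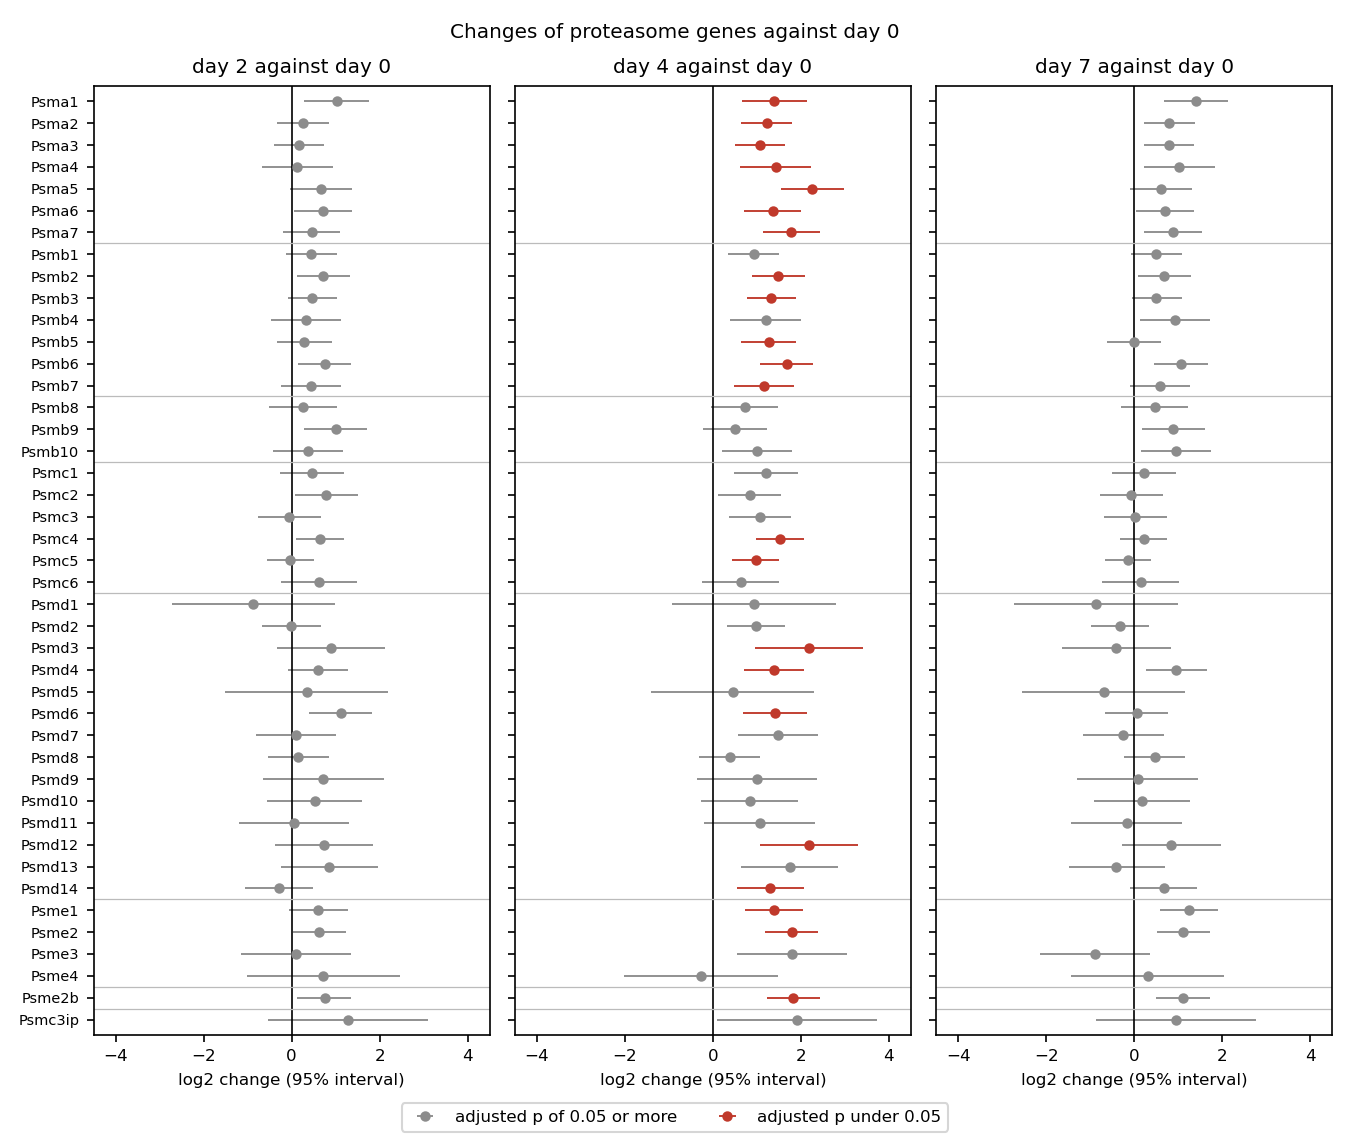
Points give the limma log2 change against day 0 with its 95% interval for 43 genes, grouped by role from the alpha subunits at the top, and red marks an adjusted p under 0.05. Red points stand in the day 4 panel alone, 22 in number, while the panels of days 2 and 7 hold none; the 3 panels share the day 0 libraries.

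That day 4 count varied with the libraries and the scaling, as did the share of all genes called in either direction, 5.34% in the main fit. With day 0 replicate 1 left out it was 14, with a median change of 1.25 and 3.68% of all genes called. Without day 0 replicate 3 it was 12, with 4.29% of all genes called. It was 9, 8, 12 and 12 when day 4 lost replicate 1, 2, 3 or 4. The shares of all genes called were then 2.66%, 1.8%, 3.37% and 3.66%. The calls of 8 genes held with each of the 16 libraries left out in turn (Psma5, Psma7, Psmb2, Psmb3, Psmb6, Psmc4, Psme2 and Psme2b). Median-of-ratios scaling moved the genes in common use by 0.47 between days 0 and 4. It left 7 of the 44 genes called higher (Psma5, Psma7, Psmb2, Psmb6, Psmc4, Psme2 and Psme2b), against 1.07% of all genes. The median change of the 44 genes was then 0.77, and that of all genes −0.17. Over all genes tested, the split of higher against lower calls was 684 to 106 as deposited and 157 to 121 rescaled.

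Markers of other retinal cells moved over the same days. The rod markers had a median sum of 3200 FPKM at day 0 (1870 to 9650), 3380 at day 2, 2200 at day 4 (1530 to 4130) and 4220 at day 7, and all 8 reached 1 FPKM on each day. The 10 bipolar cell markers summed to 58.2 to 403 FPKM at day 0, 15.2 to 108 at day 2, 0.452 to 58.3 at day 4 and 76.7 to 362 at day 7, with 10, 9, 8 and 10 of them at 1 FPKM or more in some library and none at 0 in every library of a day. The 12 markers of Mueller glia and astrocytes summed to 2320 to 3810 FPKM at day 0 and 567 to 6530 at day 4. At day 4 Aqp4 was at 0 in all 4 libraries and the other 11 reached 1 FPKM in some library. Day 4 replicate 3, with the sum of 6530 FPKM, had 4 of the 12 at 1 FPKM or more. The mean log2(FPKM + 1) of the 12 was 2.81 to 6.18 at day 0 and 2.14 to 2.86 at day 4. The 7 endothelial and pericyte markers summed to 0.0634 to 395 FPKM at day 0 and 0.174 to 7.63 at day 4, and the 6 markers of border-associated macrophages to 34.5 to 238 and 93.4 to 337. Of the monocyte markers, 1 of 6 reached 1 FPKM on either day. With the bipolar and Mueller glia lists as covariates, none of the 44 genes and no gene at all passed between days 0 and 4. The median change of the 44 was then 1.11. The part of the marker lists in the result was not tested further.

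**Figure D3:**
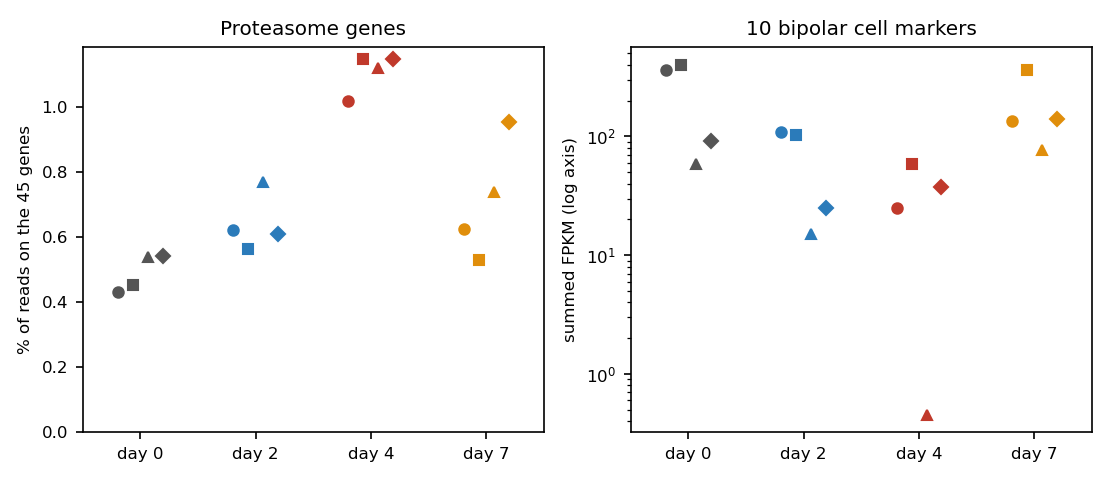
The left panel gives the percentage of each library's reads on the 45 proteasome genes, and the right panel the summed FPKM of 10 bipolar cell markers on a log axis; circles, squares, triangles and diamonds are replicates 1 to 4. On the deposited scale the day 4 libraries are the highest on the left, at 1.02 to 1.15%, and include the lowest on the right, at 0.452 FPKM.

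Among the alpha subunits, which form the outer rings and the gate of the core, levels at day 0 ran from 30.7 FPKM ± 11.5 for Psma4 to 113 FPKM ± 20.9 for Psma6 (SD, n = 4). The largest change of the 44 genes between days 0 and 4 was that of Psma5. Its levels were 30.5, 47.2, 19.6 and 74 FPKM at day 0 (replicates 1 to 4) and 54.8, 51.5, 62 and 79.7 FPKM at day 2. They were 154, 204, 228 and 167 FPKM at day 4 and 46.3, 54.3, 59 and 79.8 FPKM at day 7. Every day 4 library stood above every library of the other days, and the day 2 and day 7 levels lay within the day 0 range but for 2 libraries near 80 FPKM. Psma5 rose by 2.26 ± 0.33 at day 4 (SE; limma, adjusted p = 0.00296), and by 1.79 (adjusted p = 0.0148) after rescaling. Of its exon bases, 4.5% lie in exons of 1700010K24Rik on the other strand, and the pseudogenes Gm8394 and Gm12989 match 76.8% and 59.2% of its transcript at 98.6% and 97.5% identity, so part of its reads cannot be placed with certainty.

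Psma7 was at 48.2, 40.9, 25 and 31.9 FPKM at day 0 and at 94.2, 133, 145 and 132 FPKM at day 4. These sets did not overlap, and Psma7 rose by 1.78 ± 0.31 (limma, adjusted p = 0.00576; 1.31 in batch 1 and 2.25 in batch 2). The other alpha subunits rose by 1.07 ± 0.27 (Psma3, the smallest) to 1.43 ± 0.38 (Psma4). Psma1 differed from the rest in that its mean at day 7, 177 FPKM ± 70.9, was not below that at day 4, 170 FPKM ± 42.7. Its day 7 libraries were at 178, 117, 136 and 276 FPKM, all above the day 0 libraries at 64.1, 86.4, 31.3 and 85.7 FPKM, but the change of 1.41 ± 0.34 did not pass (limma, adjusted p = 0.117). Psma3 and Psma4 share sequence with processed pseudogenes at 96.5% to 100% and 96.8% identity, so their levels are uncertain.

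Of the constitutive beta subunits, Psmb2 had the highest level at day 0, 160 FPKM ± 73.6, and Psmb7 the lowest, 12.4 FPKM ± 4.21. Psmb6, which carries the caspase-like site, was at 109, 135, 60.7 and 69.4 FPKM at day 0 and at 177, 160, 139 and 127 FPKM at day 2. It was at 282, 284, 275 and 302 FPKM at day 4 and at 147, 134, 214 and 288 FPKM at day 7. The day 4 libraries lay close together and above all libraries of days 0 and 2, and day 7 replicate 4 fell among them. Psmb6 rose by 1.68 ± 0.28 at day 4 (limma, adjusted p = 0.00511). Its change of 1.07 ± 0.28 at day 7 did not pass (adjusted p = 0.145) and was 0.21 in batch 1 and 1.92 in batch 2.

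Psmb5, which carries the chymotrypsin-like site, was at 77.5, 94, 122 and 60.7 FPKM at day 0, and at 84.6, 90.3, 185 and 85.8 FPKM at day 2. At day 4 it was at 201, 212, 153 and 285 FPKM, and at day 7 at 86.4, 84.4, 97.4 and 76.5 FPKM. The day 4 libraries did not overlap those of days 0 and 7. Psmb5 rose by 1.27 ± 0.29 at day 4 (limma, adjusted p = 0.0224) and at day 7 its change against day 0 was 0.00 ± 0.29 (95% interval −0.62 to 0.62). Of its exon bases, 12.1% overlap the microRNA gene Mir686, and the pseudogene Gm3375 matches 88.5% of its transcript at 98.9% identity, so its level is uncertain.

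Psmb7, which carries the trypsin-like site, was at 7.91, 12.8, 10.9 and 18 FPKM at day 0 and at 27.6, 28.6, 24 and 31.8 FPKM at day 4. The groups did not overlap, and Psmb7 rose by 1.16 ± 0.32 (limma, adjusted p = 0.0485). This call was lost in 14 of the 16 fits that left out 1 library, with an adjusted p of up to 0.141, and 11.8% of its exon bases overlap Nek6 on the opposite strand. Strand is not kept by the kit, and reads from overlapping exons of the pair are therefore mixed. Psmb2 rose by 1.49 ± 0.28 (adjusted p = 0.00837) and Psmb3 by 1.33 ± 0.26 (adjusted p = 0.0108), the latter with pseudogenes of up to 97.1% identity. Psmb4 and Psmb1 had values of 1.20 ± 0.37 and 0.93 ± 0.27 that did not pass (adjusted p = 0.0759 and 0.0626).

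The stretches before the start sites of 4 of these genes are shown because the constitutive catalytic subunits Psmb5 and Psmb6 held a match to the antioxidant response element. That is the site of Nfe2l1 and Nfe2l2, and Nfe2l1 is known to drive proteasome genes when the proteasome is inhibited. Psma5 and Psme2, which had the largest called rises of the core and of the activators at day 4 against day 0, held none. Capitals mark the match to TGACNNNGC, and each stretch reads 5′ to 3′ on the gene's strand and ends before the first annotated exon (RefSeq promoters, build GRCm38.p6).
Psmb5: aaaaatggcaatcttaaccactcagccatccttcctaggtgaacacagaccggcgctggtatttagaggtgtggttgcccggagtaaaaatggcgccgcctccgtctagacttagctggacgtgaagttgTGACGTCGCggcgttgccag
Psmb6: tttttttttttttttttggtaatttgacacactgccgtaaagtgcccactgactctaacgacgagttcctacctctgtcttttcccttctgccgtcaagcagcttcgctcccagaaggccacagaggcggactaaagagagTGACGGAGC
Psma5: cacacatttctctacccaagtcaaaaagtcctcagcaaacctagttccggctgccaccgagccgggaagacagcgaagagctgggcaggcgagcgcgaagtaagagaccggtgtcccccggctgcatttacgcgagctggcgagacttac
Psme2: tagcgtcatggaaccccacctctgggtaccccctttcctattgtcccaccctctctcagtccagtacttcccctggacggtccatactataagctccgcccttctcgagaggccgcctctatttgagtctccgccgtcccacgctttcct

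The Psmb5 stretch is chr14:54618023-54618172 (minus strand), and its match TGACGTCGC begins 47 bases before the RefSeq start. The Psmb6 stretch is chr11:70525207-70525356 (plus strand), with the match TGACGGAGC 9 bases before the start. Those of Psma5 and Psme2 are chr3:108256728-108256877 (plus strand) and chr14:55591114-55591263 (minus strand). RefSeq windows of 300 bases, 250 before to 50 after the start, were found for 38 of the 45 genes and gave 41 windows. Both strands were searched, and each motif was counted on its own where motifs overlapped. TGACNNNGC was in 6 of the 41 windows (14.6%; Psmb5, Psmb6, Psmc6, Psmd12, Psmd9 and Psme4) and in 12.4% of the 32851 windows of all genes. The interferon-stimulated response element, GAAANNGAA, the site of interferon regulatory factors, was in 6 windows (14.6%; Psmb3, Psmb4, Psmc2, Psmd4, Psmd9 and Psme1) and in 8.56% of all. The gamma-interferon activated site, TTCNNNGAA, was in 2 windows (4.88%; Psmb8 and Psmd2) and in 8.3% of all. The Psmb8 match, TTCCCAGAA, began 97 bases before the RefSeq start, inside an exon of the GENCODE annotation. These are matches of letters, not measured sites.

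The 3 inducible subunits had no call in any of the 5 comparisons. Psmb8 (chr17:34197721-34201454, plus strand) and Psmb9 (chr17:34181987-34187764, minus strand; build GRCm38) are neighbours in the MHC region, next to Tap1. Psmb8, which takes the place of Psmb5, was at 29.3, 58.5, 167 and 163 FPKM at day 0. It was at 110, 60.3, 140 and 105 FPKM at day 2, at 124, 140, 173 and 117 FPKM at day 4, and at 92.3, 76, 147 and 171 FPKM at day 7. The 2 batch 2 libraries of day 0 were as high as the day 4 libraries, and the 2 of batch 1 lay below them. The day 4 value of Psmb8 was 0.72 ± 0.36 (limma, adjusted p = 0.276; 95% interval −0.05 to 1.48), with 1.65 in batch 1 and −0.22 in batch 2. The adjusted p for a difference between the batches was 0.351. The microglia markers in the same day 0 libraries summed to 3050, 6820, 11600 and 12000 FPKM, low in batch 1 and high in batch 2 like Psmb8, and their part in its level was not tested. Of its exon bases, 14.7% lie in exons of Gm20496 on the other strand.

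Psmb9, which takes the place of Psmb6, was the lowest of the 3 at 8.97, 16, 21.5 and 16.3 FPKM at day 0. Its day 2 libraries, at 34.5, 21.9, 33.3 and 37.4 FPKM, all lay above day 0. At day 4 it was at 17.1, 28.3, 25.1 and 17.9 FPKM, which overlapped day 0, and at day 7 at 22.5, 22.5, 23.7 and 56.4 FPKM, which did not. The values against day 0 were 1.01 ± 0.34 at day 2, 0.50 ± 0.34 at day 4 and 0.89 ± 0.34 at day 7 (limma, adjusted p = 0.301, 0.433 and 0.295). Of its exon bases, 5.8% overlap the neighbouring Tap1 on the opposite strand. Psmb10, which takes the place of Psmb7, was at 24.4, 36, 67.2 and 47.3 FPKM at day 0 and at 77.8, 133, 83.7 and 54.1 FPKM at day 4, with 1 library inside the day 0 range. Its values were 0.37 ± 0.37, 1.0 ± 0.37 and 0.95 ± 0.37 at days 2, 4 and 7 (adjusted p = 0.813, 0.135 and 0.319).

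**Figure D4:**
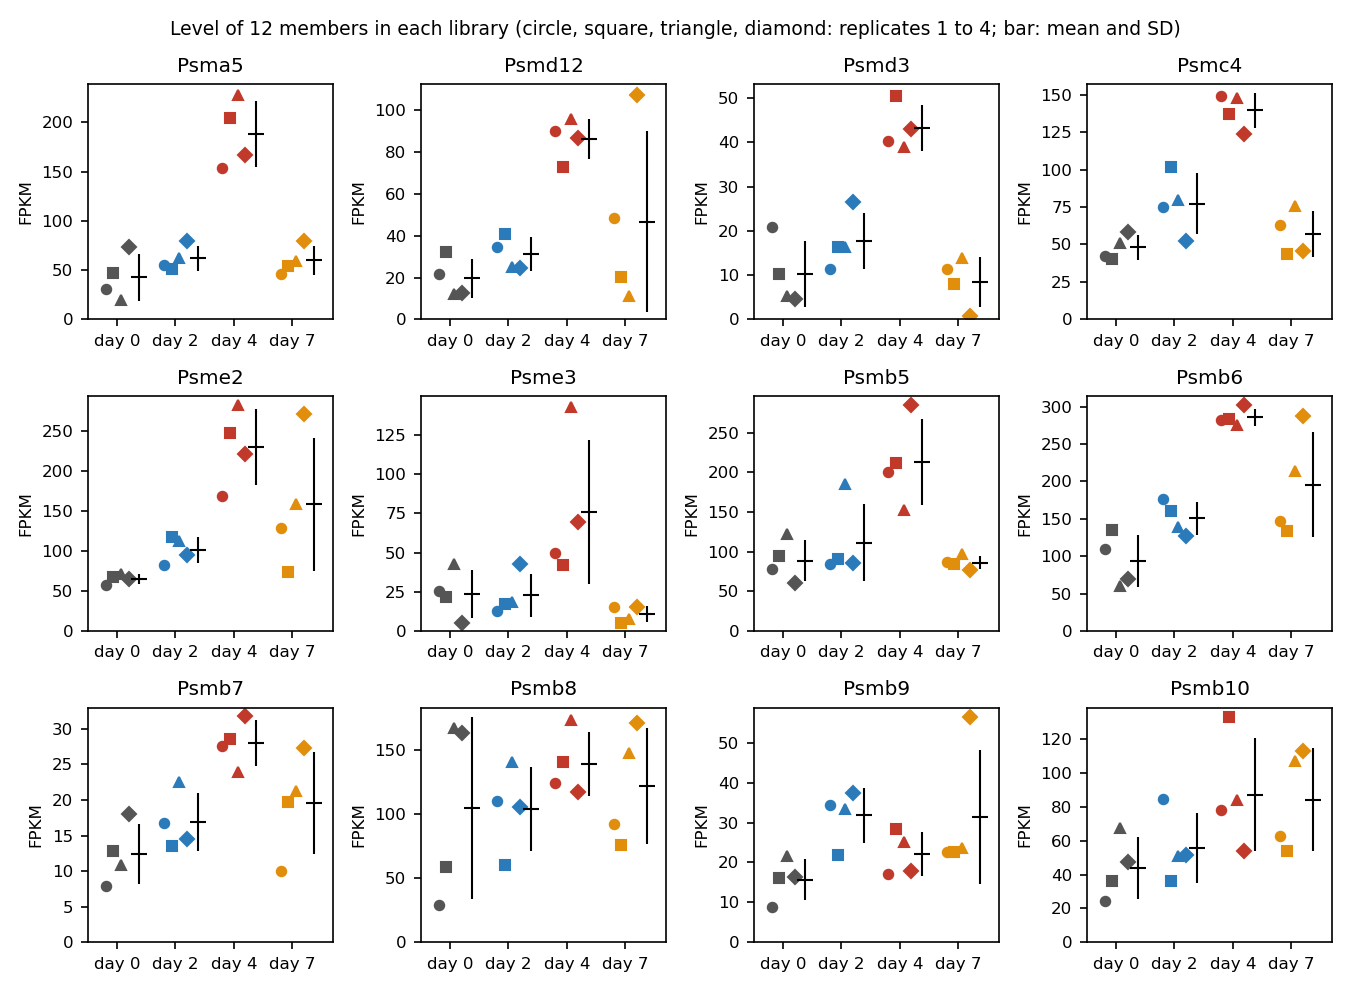
Each panel gives the FPKM of 1 gene in the 16 libraries by day, with replicates 1 to 4 as circle, square, triangle and diamond and the mean with its SD as a bar beside them; each axis starts at 0. The day 4 libraries stand above all day 0 libraries for Psma5, Psmd12, Psmd3, Psmc4, Psme2, Psmb5, Psmb6 and Psmb7, and overlap them for Psme3, Psmb8, Psmb9 and Psmb10.

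Within a library, the ratio of an inducible subunit to the constitutive one it replaces does not depend on the depth or scaling. The ratio of Psmb9 to Psmb6 was 0.0607, 0.0999, 0.091 and 0.0593 at day 4. It was 0.195, 0.137, 0.239 and 0.296 at day 2 and 0.153, 0.168, 0.111 and 0.196 at day 7, so day 4 was below both without overlap. At day 0 it was 0.0826, 0.118, 0.353 and 0.234, which overlapped day 4 in 1 library. The ratio of Psmb8 to Psmb5 was 0.706 ± 0.305 at day 4 and 1.26 ± 1.04 at day 0, with groups that overlapped. That of Psmb10 to Psmb7 was 3.17 ± 1.24 and 3.67 ± 1.66, also with overlap. The inducible subunits made up 32.1% ± 6.81 of the summed FPKM of the 6 catalytic subunits at day 4, 43.3% ± 18.1 at day 0, 40.4% ± 7 at day 2 and 43.3% ± 3.4 at day 7. The day 0 share was 24.4% and 31.4% in batch 1 and 56.9% and 60.5% in batch 2, and every library of days 2 and 7 lay within that range, while day 4 replicate 4, at 23.4%, lay below it. The shares were not tested.

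**Figure D5:**
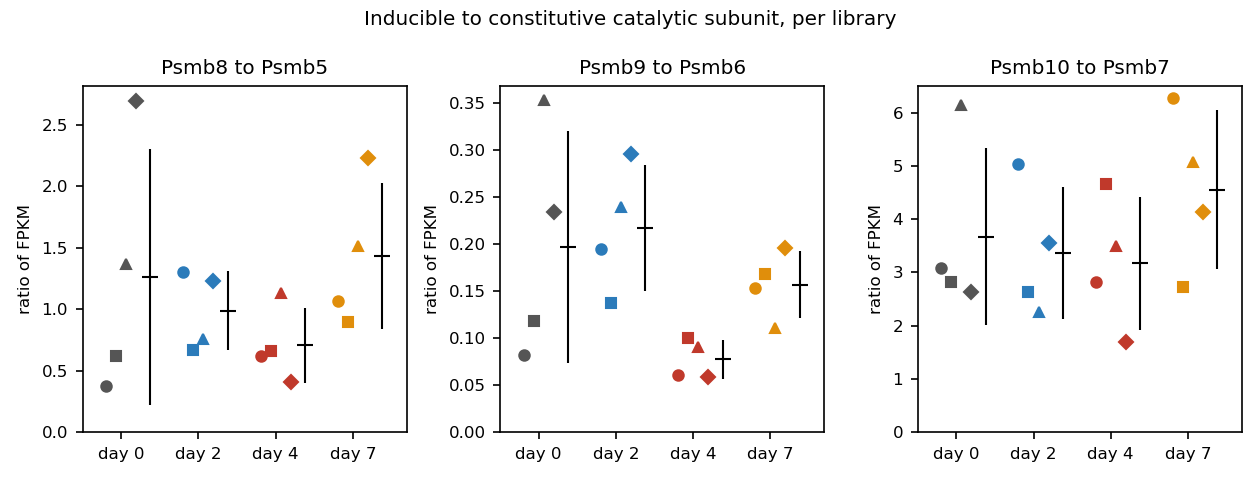
The ratio of FPKM of each inducible catalytic subunit to its constitutive counterpart is given per library and day, with replicates 1 to 4 as circle, square, triangle and diamond and the mean with its SD beside them. For Psmb9 to Psmb6 the day 4 libraries, at 0.0593 to 0.0999, lie below all those of days 2 and 7, and day 0 spans 0.0826 to 0.353.

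Of the base ATPases, the ring of Psmc1 to Psmc6 that unfolds substrates, Psmc5 had the highest level at day 0, 124 FPKM ± 12, and Psmc2 the lowest, 20.6 FPKM ± 6.97. Psmc4 was at 42.6, 40.6, 50.7 and 58.6 FPKM at day 0 and at 74.7, 102, 79.9 and 52.5 FPKM at day 2. It was at 149, 137, 148 and 124 FPKM at day 4 and at 63.2, 43.5, 75.7 and 45.9 FPKM at day 7. No library of another day reached those of day 4. Psmc4 rose by 1.53 ± 0.25 at day 4 (limma, adjusted p = 0.00508) and fell by 1.31 ± 0.25 from day 4 to day 7 (adjusted p = 0.0199). Psmc5 rose by 0.97 ± 0.25 (adjusted p = 0.035), the smallest called rise, and lost this call in 8 of the 16 fits with 1 library left out. The smallest value of the ring was 0.63 ± 0.41 for Psmc6 (adjusted p = 0.411), whose day 4 libraries were at 69.4, 63.1, 30.6 and 128 FPKM.

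The Psmd genes were the most uneven group. At day 0 they ran from 3.99 FPKM ± 2.08 for Psmd9, an assembly chaperone, to 52.4 FPKM ± 15 for Psmd8, a lid subunit. Psmd12, a lid subunit, was at 21.6, 32, 12.2 and 12.4 FPKM at day 0, at 34.4, 41, 24.9 and 24.7 FPKM at day 2 and at 90.1, 73, 95.5 and 86.5 FPKM at day 4. At day 7 its libraries were at 48.3, 20.1, 11.4 and 107 FPKM, from the lowest to the highest of all 16. It rose by 2.19 ± 0.52 at day 4 (limma, adjusted p = 0.0268). Psmd3, another lid subunit, was at 20.9, 10.2, 5.29 and 4.67 FPKM at day 0 and at 40.3, 50.6, 38.9 and 43 FPKM at day 4, without overlap. It rose by 2.19 ± 0.58 (adjusted p = 0.042) and fell by 2.59 ± 0.58 from day 4 to day 7 (adjusted p = 0.037), where 1 library was at 0.725 FPKM.

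Psmd6 rose by 1.41 ± 0.34, Psmd4 by 1.39 ± 0.32 and Psmd14 by 1.31 ± 0.36 at day 4 (limma, adjusted p = 0.0264, 0.0234 and 0.0494). The call of Psmd14 was lost in 15 of the 16 fits with 1 library left out and that of Psmd3 in 11. Psmd13 and Psmd7, both of the lid, had values of 1.75 ± 0.51 and 1.49 ± 0.43 and libraries that did not overlap day 0, and did not pass (adjusted p = 0.0623 and 0.0569). Psmd8 had the smallest value, 0.38 ± 0.33 (adjusted p = 0.559). Psmd1, the large scaffold of the base, was at 26.3, 12.3, 87.2 and 8.07 FPKM at day 0, a spread that contained every day 4 library. Psmd5, an assembly chaperone, was listed at 0 in day 0 replicate 3, where 3 reads would give 0.032 FPKM, and at 12.1 to 18.1 FPKM in the others. Overlaps with opposite-strand exons make Psmd9 (25.5% of its exon bases, Gm26745) and Psmd13 (10.1%, Sirt3) uncertain.

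The PA28 activator opens the gate of the core and is made of Psme1 and Psme2, which are neighbours (chr14:55578123-55581529, plus strand, and chr14:55587441-55591113, minus strand; GRCm38). Psme2 was at 57.1, 67.3, 70.8 and 64.3 FPKM at day 0 and at 81.8, 117, 112 and 94.5 FPKM at day 2. It was at 169, 247, 282 and 221 FPKM at day 4 and at 128, 73.7, 159 and 271 FPKM at day 7. The day 0 libraries were below all of the others, and those of day 4 above all of day 2. Psme2 rose by 1.79 ± 0.28 at day 4 (limma, adjusted p = 0.00405), while 0.63 ± 0.28 at day 2 and 1.12 ± 0.28 at day 7 did not pass (adjusted p = 0.487 and 0.127). Psme1 was at 38.3, 89.4, 136 and 113 FPKM at day 0 and at 178, 250, 237 and 243 FPKM at day 4, without overlap. It rose by 1.39 ± 0.31 (adjusted p = 0.0184), and its value of 1.26 ± 0.31 at day 7, with a mean of 220 FPKM ± 95.2, did not pass (adjusted p = 0.121).

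Psme2b rose by 1.83 ± 0.29 at day 4 (limma, adjusted p = 0.00364), but it is 99.4% identical to Psme2 over 794 bases. Its ratio to Psme2 lay between 0.533 and 0.729 in all 16 libraries. Their reads may be shared, so Psme2b is no separate observation. Psme3, the nuclear activator PA28 gamma, was at 25.7, 21.8, 42.4 and 4.9 FPKM at day 0 and at 49.6, 42.3, 143 and 69.4 FPKM at day 4, where 1 library lay just inside the day 0 range. Its value of 1.79 ± 0.59 did not pass (adjusted p = 0.0901). At day 7 it was at 15, 5.19, 7.36 and 15 FPKM, all below day 4. Psme4, the activator PA200, was low at 0.907 FPKM ± 0.647 at day 0 and at 0.185, 0.123, 0.0169 and 17.5 FPKM at day 7, where 1 library stood apart. Its values were 0.72 ± 0.82, −0.27 ± 0.82 and 0.31 ± 0.82 at days 2, 4 and 7 (adjusted p = 0.843, 0.884 and 0.918).

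The genes outside the somatic proteasome had unsteady levels. Psma8 was listed at 0 in 7 of the 16 libraries, where 3 reads would give 0.0766 to 0.139 FPKM, and reached 24.7 FPKM in day 2 replicate 3. Psmb11 was listed at 0 in 8 libraries, where 3 reads would give 0.0443 to 0.0724 FPKM, had at most 0.0847 FPKM and was not tested. Psmc3ip ran from 0.0425 to 30.3 FPKM, with 1.91 ± 0.85 at day 4 (limma, adjusted p = 0.216), and 21.2% of its exon bases overlap Mlx on the opposite strand.

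At day 2 none of the 44 genes passed, where 0.25% of all genes tested were called higher. The median was 0.50, against 0.04 for all genes, and 10 of the 44 had an unadjusted p under 0.05, all positive, where 9.73% of all genes had one in either direction. In 5 genes every day 2 library was above every day 0 library (Psma1, Psma6, Psmb9, Psme2 and Psme2b), where 3.37% of all genes tested were. The lowest adjusted p belonged to the lid subunit Psmd6, with 1.12 ± 0.34 (limma, adjusted p = 0.226). Of the catalytic subunits, Psmb5 had 0.29 ± 0.29, Psmb6 0.75 ± 0.28, Psmb7 0.44 ± 0.32 and Psmb8 0.26 ± 0.36 (adjusted p = 0.813, 0.374, 0.709 and 0.881). Psme1 had 0.61 ± 0.31 and Psme3 0.10 ± 0.59 (adjusted p = 0.552 and 0.979). From day 2 to day 4 again none passed, where 0.433% of all genes were called higher. The median was 0.86, against 0.16 for all genes, with 25 of the 44 at an unadjusted p under 0.05, where 11.4% of all genes were. In 22 genes every day 4 library lay above every day 2 library, where 7.83% of all genes did so. Psma5 came nearest to passing, with 1.59 ± 0.33 (adjusted p = 0.052). Day 2 is shared by these comparisons, so they are not independent.

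At day 7 none of the 44 genes passed against day 0, where 0.27% of all genes tested were called higher. The median was 0.51, against −0.07 for all genes, with 15 of the 44 at an unadjusted p under 0.05, where 12.1% of all genes were. The groups did not overlap for 8 genes (Psma1, Psma2, Psma4, Psma7, Psmb3, Psmb9, Psme2 and Psme2b), where 2.51% of all genes were higher without overlap. The medians by role were 0.80 for the alpha subunits, 0.59 for the constitutive beta subunits, 0.89 for the immunoproteasome, 0.09 for the base ATPases and −0.06 for the Psmd genes. All 7 alpha subunits were positive, from 0.61 to 1.41, as against 7 of the 14 Psmd genes, from −0.87 to 0.96. Whether the core and the cap differed was not tested. Psmb7 had 0.59 ± 0.32, Psmb8 0.47 ± 0.36 and Psme3 −0.89 ± 0.59 (adjusted p = 0.47, 0.621 and 0.559, limma). Day 7 replicate 4 was the highest of its group for Psma6, at 402 FPKM against 163, 111 and 154, and the lowest for Psmd3 and Psmd9, at 0.725 and 0.014 FPKM.

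From day 4 to day 7, 6 of the 44 genes fell and none rose (limma, adjusted p from 0.0199 to 0.042), where 1.5% of all genes fell. They were Psma5 and Psmb5 of the core, Psmc4 and Psmc5 of the base, Psmd3 of the lid and the activator Psme3. The median of the 44 was −0.76, against −0.25 for all genes, and 14 genes were lower without overlap, where 8.66% of all genes were. Psma5 fell by 1.65 ± 0.33, Psmb5 by 1.26 ± 0.29, Psmc5 by 1.11 ± 0.25 and Psme3 by 2.68 ± 0.59. All 6 were negative in both batches, which hold the same libraries as the pooled fit, so this is no separate evidence. Psmd13 and Psmd2 just missed the threshold, with −2.15 ± 0.51 and −1.30 ± 0.31 (adjusted p = 0.0507 and 0.0518). The count was 0, 0, 1 and 2 without day 4 replicates 1, 2, 3 and 4, 0 without day 7 replicate 2 and 3 without day 7 replicate 4. Of all genes, 1.63% were called in either direction in the main fit. In these fits, in the same order, the shares were 0.568%, 0.419%, 1.06%, 0.791%, 0.547% and 1.2%. Rescaling by median of ratios moved the genes in common use by −0.45 here and ended all 6 calls, with 42 of all 14613 genes then tested called lower. It left a median of −0.31 for the 44 genes and moved that of all genes from −0.25 to 0.05. The median of the alpha subunits went with this general shift from −0.41 to 0.03, and that of the activators from −0.40 to 0.05.

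A single test over the 4 days passed 9 of the 44 genes, against 2.89% of all genes tested (limma, F test). They were Psma5 (adjusted p = 0.00868), Psma7, Psmb2, Psmb3, Psmb6, Psmc4, Psmd6, Psme2 and Psme2b. The count was 4 when day 4 lost replicate 1, 3 or 4 and 1 when it lost replicate 2. The shares of all genes in those fits are not given here, so the drop cannot be read as particular to these genes.

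Other genes of the pathway were examined by list. Of 15 genes for assembly, inhibition and association with the proteasome, 3 rose at day 4, where 4.62% of all genes did, and the median of the 15 was 0.88, where that of all genes was 0.16. They were Uchl5, the deubiquitinase of the cap, by 2.05 ± 0.43 from 13.7 FPKM ± 8.99 to 53.7 FPKM ± 9.79, and the core assembly chaperones Psmg1 and Psmg4, by 3.30 ± 0.82 and 2.18 ± 0.55 (limma, adjusted p = 0.0139, 0.0309 and 0.034). Psmg1 had 1.15 in batch 1 and 5.46 in batch 2. Pomp, the maturation factor of the core, had 0.88 ± 0.25 with libraries that did not overlap day 0, and did not pass (adjusted p = 0.0555). Adrm1, a ubiquitin receptor of the cap, fell by 1.59 ± 0.37 from day 4 to day 7 (adjusted p = 0.0451).

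For the lists that follow, 4.62% of all genes tested were called higher at day 4 and 0.716% lower, with a median of 0.16. Lists of 6 to 10 genes would often hold no call at such shares. None of 6 genes for ubiquitin and its activating enzymes passed at day 4 (median 0.18). The largest value was that of Rps27a, a fusion of ubiquitin with a ribosomal protein, 0.84 ± 0.26 (limma, adjusted p = 0.0765), with 92.9 FPKM ± 28.7 at day 0 and 165 FPKM ± 50.2 at day 4 and no overlap. None of 10 shuttle factors and partners of p97 passed (median 0.27), the largest value being 2.45 ± 1.23 for Nploc4, a p97 cofactor (adjusted p = 0.279). None of 7 regulators of proteasome gene transcription passed (median 0.26). Nfe2l1, named after its values were seen, had −1.08 ± 1.03, with 0.38 in batch 1 and −2.53 in batch 2 (adjusted p = 0.599). None of 10 genes that supply or present peptides on MHC class I passed at day 4 (median −0.07), the largest value being 1.47 ± 0.89 for the peptide transporter Tap1 (adjusted p = 0.381). The chaperone Calr of that list fell by 1.48 ± 0.34 from day 4 to day 7 (adjusted p = 0.0426).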

How the data were processed

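RNA of sorted retinal cells was sequenced from amplified cDNA with the Nextera XT kit, per the labels' protocols, a kit that does not mark strand. Per the submitters' processing notes, STAR 2.7.2b and featureCounts 1.6.1 were used with GRCm38.p6 (mm10). The authors deposited FPKM per gene, with gene lengths. FPKM times length summed to 1e+09. Low values were whole multiples of 1 step, taken as 0.01 read (tolerance 0.02 steps), and 42.7% to 68.7% of those under 20 reads were whole reads, so no count test was run. How shared reads were divided is not stated in the sources used here. Lengths matched GENCODE vM21 for 54487 of 55385 genes.

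Groups and replicate numbers came from the titles. limma 3.58.1 in R 4.3.3 (lmFit, eBayes with trend) was fitted to log2(FPKM + 1), a scale that understates changes of low genes, over genes that reached 1 FPKM in 4 or more of the 16 libraries. The fit had a mean per day and the batch, and p-values were two-sided, adjusted by Benjamini-Hochberg over all 14795 genes, threshold 0.05, in 5 comparisons. The 3 comparisons with day 0 share its libraries. A gene did not overlap when all 4 libraries of a day lay beyond all 4 of the other. Scripts were tested on simulated data. Near-identical copies were found with blastn.

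Named were all catalytic subunits and activators, called genes, the extremes of each role and called genes of the pathway lists or, with none called, the largest change; Psmd1, Psmd5, Psmd7, Psmd13, Pomp and Nfe2l1 were added after their values were seen. The largest change among the regulators is not reported here. Members and lists were chosen with earlier results of these data known.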

Additional observations from a re-analysis of the deposited data

Results flagged for a closer look

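In 10 of 176 groups of 4 libraries (5.68%), 1 library lay far from the other 3 by Dixon's criterion, which chance meets in about 1 of 20 groups. The values, in FPKM with the range of the other 3 libraries, were as follows. At day 0, Psmd5 was at 0 in replicate 3 (12.1 to 18.1) and Psme2b at 30.4 in replicate 1 (41.6 to 42.5). At day 2, Psmb4 was at 36 in replicate 1 (43.8 to 45.5), and in replicate 3 Psmb5 was at 185 (84.6 to 90.3) and Psme1 at 235 (97.9 to 113). At day 4, Psma8 was at 2.26 in replicate 1 (0 to 0.0804), Psme1 at 178 in replicate 1 (237 to 250) and Psmd7 at 121 in replicate 3 (65.1 to 67.7). At day 7, replicate 4 stood apart for both Psmb9 at 56.4 (22.5 to 23.7) and Psme4 at 17.5 (0.0169 to 0.185). Of the 44 genes, none had a change that passed a test of the difference between the batches, the lowest adjusted p being 0.145 (limma, interaction).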

How the results depend on the processing

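Against 22 genes called higher at day 4, the number called was 19 with a pseudocount of 0.1 and 16 without the batch. It was 21 leaving out the day 2 pair with the title letter F (20 of them among the 22) and 12 with only the groups compared. It was 8 with no filter on low values, 8 with the full title code and 7 with median-of-ratios scaling. It was 3 in batch 1 alone, 0 in batch 2 alone and 0 with the bipolar and Mueller glia lists as covariates. Leaving out 1 library gave 8 to 23 genes, not all of them among the 22. Of all genes, 5.34% were called in either direction in the main fit. In the same order of settings, the shares were 4.62%, 3.99%, 4.72%, 2.71%, 0.624%, 2.56%, 1.9%, 2.05%, 0% and 0%. They were 1.8% to 6.45% with 1 library left out. From day 4 to day 7, against 6 genes called lower, the number was 0 with no filter, rescaling, either batch alone, the covariates or only the groups compared. It was 1 with the full title code, which was none of the 6, and 0 to 7 with 1 library left out. Of all genes, 1.63% were called in the main fit, 0.128% with no filter and 0.52% rescaled. The share was 0.0406% with only the groups compared and 0.703% with the full title code. No gene at all was called in either batch alone or with the covariates. The full title code called 1 gene at day 2 (Psmb6, 1.08, limma, adjusted p = 0.0337), where 0.852% of all genes were called. Only the groups compared called 1 from day 2 to day 4 (leave-one-out 0 to 3), where 0.216% of all genes were called. For the test over all days, 9 genes were called, against 1 with no filter, 3 rescaled, 4 with the full code, 0 in either batch, 0 with the covariates and 1 to 12 with 1 library left out. The shares of all genes in these fits of that test are not given here, so its counts cannot be read as particular to the proteasome genes. The causes were not tested. A fit of 1 batch, or with 1 library left out, also holds fewer libraries. With the replicate number as a block, 16 genes passed at day 4, 2 from day 4 to day 7 and 4 over all days. Of all genes, 3.83% passed at day 4 and 1.03% from day 4 to day 7. Same-numbered libraries had correlations of −0.06 to 0.23, over 0.1 in 5 of 24 pairs. Their median was 0.04, against 0.05 for other numbers of the same batch, so numbers were not used as pairs. Of the 16 libraries, 6 were closest to their own number, and what chance would give was not worked out. Rescaled medians at day 4 were 0.93 (alpha), 0.79 (beta), 0.25 (immunoproteasome), 0.55 (ATPases), 0.73 (Psmd) and 1.12 (activators), against −0.17 for all genes. From day 4 to day 7 they were 0.03, −0.16, 0.40 and −0.56 for the first 4 of these, against 0.05 for all genes. From day 2 to day 4 they were 0.56 (beta) and 0.17 (immunoproteasome), against −0.04. At day 2 they were 0.19 (immunoproteasome) and 0.44 (activators), against −0.08. No called value changed sign under these alternatives. Genes near 1 FPKM or below, such as Psme4, rest on few reads, and a value of 0 does not show absence.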
